A study of Rattus norvegicus with 8 samples.

Results

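The genes described here encode the mitochondrial respiratory chain, ATP synthase and the mitochondrial ribosome, measured as messenger RNA in the rat pituitary. They were chosen by name alone. Each has at least 1 non-control probe on the array whose gene name begins with Nduf, Uqcr, Cox4 to Cox8 or Atp5, is Sdha to Sdhd or Cycs, or is Mrpl or Mrps followed by a number. No measured value entered the choice. There were 160 such genes, on 195 probes and 393 spots per array, among 26257 genes, 30367 probes and 42877 non-control spots in all. The study had 2 groups of nursing Wistar dams on postpartum day 7: 4 dams exposed to TCDD, a dioxin that activates the aryl hydrocarbon receptor (AhR), and 4 control dams. Dose and timing of the exposure are not stated in the labels used here. Each sample was pituitary tissue hybridised to 1 Agilent single-colour array. The design counts 4 rats per group and says no more on how samples were taken, so the spread behind each p-value may be in part technical.

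The respiratory chain passes electrons from NADH and succinate to oxygen through complexes I to IV, and the proton gradient that results drives ATP synthase. Mitochondrial DNA encodes a small set of core subunits, which the mitochondrial ribosome translates. All other subunits, and all proteins of that ribosome, are encoded in the nucleus, and those nuclear genes are the ones named here. Hormone-secreting cells of the anterior pituitary, such as the prolactin cells that enlarge their output in lactation, need ATP for peptide synthesis and exocytosis.

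Values are log2 processed signal minus the array's own 75th percentile, so 0 is the level of a fairly bright spot and each unit is a doubling. Signal depends on the probe, so levels were compared between arrays for 1 probe and not between genes. The 75th percentile lay between 765 and 932 in the 8 arrays, 71.1% to 73.9% of spots were well above background, and 0 spots were saturated. By the array numbers the TCDD arrays lay on a different slide from the control arrays. The scan times in the file headers also differed between the groups. Slide, scan time and exposure therefore cannot be told apart. Cyp1a1, the classical AhR target, was well above background on 4 of 4 TCDD arrays and on 0 of 4 control arrays. The pituitary hormone genes tested, 7 of 7, were well above background on all arrays. Of the members, 157 passed the filter on dim probes (well above background on 4 or more arrays) and were tested among 17361 genes. Cox8c, an isoform of cytochrome c oxidase, and Mrps28, a small-subunit ribosomal protein, were well above background on 0 arrays. Ndufaf2, a complex I assembly factor, was so on 1 TCDD array and 0 control arrays.

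No member was called different between TCDD and control dams, and the intervals around most members were narrow. With limma, 0 of 157 members passed an adjusted p of 0.05, beside 14 of all genes tested (0.0806%). That total of 14 became 0, 3, 6 and 3 with TCDD replicates 1 to 4 left out in turn, and 1, 1, 0 and 11 with control replicates 1 to 4 left out in turn. At an unadjusted limma p under 0.05 stood 3 members, 1.91% of them, against 10.7% of all genes tested. All 3 were higher after TCDD (7.76% of all genes were) and 0 were lower (2.95% of all genes). Without control replicate 1 the higher count was 1, without TCDD replicate 4 the lower count was 1, and without control replicate 4 it was 2. All TCDD arrays stood above all control arrays in 6 members, 3.82% of them, against 5.19% of all genes, and all TCDD arrays stood below all control arrays in 0 members, against 1.91% of all genes. Over both directions 7.10% of all genes had groups that did not overlap. In bulk tissue, fewer cells of a type and less RNA per cell cannot be told apart.

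Of the 157 members, 94 were higher and 63 lower after TCDD, and the median log2 difference was 0.014, beside 0.020 over all genes tested. The sign of such small differences depends on the scaling: with each array centred on its median signal the counts were 48 higher and 109 lower and the median was -0.025. The 95% confidence interval of the difference lay within a 1.25-fold change either way for 139 members, 88.5% of them, beside 45.3% of all other genes. It lay within 1.5-fold for 154 members and within 2-fold for 156. Mrpl47, a large-subunit protein, was the exception to the 2-fold range, with an interval of -0.76 to 1.79 on the log2 scale. That probe was dim, and well above background on 4 TCDD arrays and 3 control arrays. Uqcrq, a small subunit of complex III, and Mrps10, of the small ribosomal subunit, were the other two outside 1.5-fold.

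**Figure D1:**
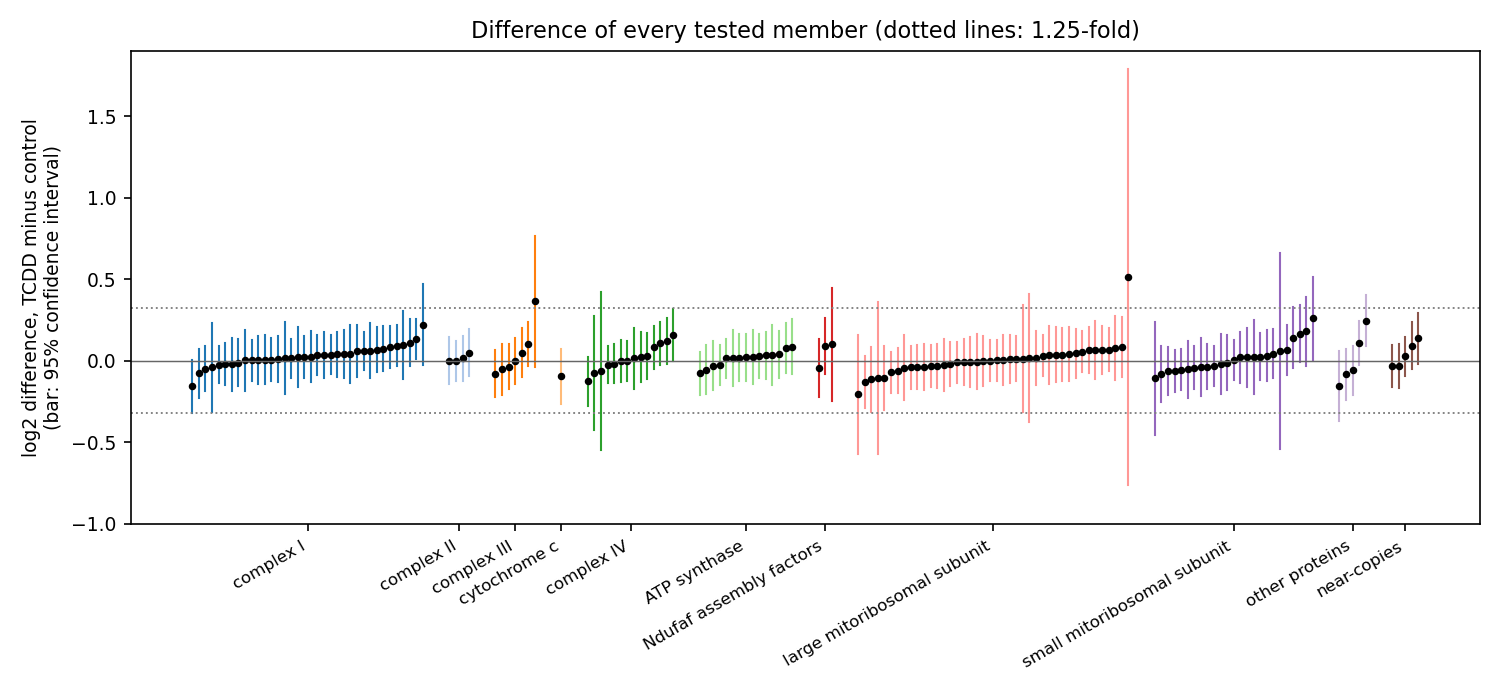
Log2 difference (TCDD minus control, vertical axis) of each of the 157 tested members, grouped by complex and sorted within it. Points are limma estimates from 4 TCDD and 4 control arrays, bars are 95% confidence intervals, and dotted lines mark 1.25-fold. Most intervals cross 0 and lie between the dotted lines, and the widest bar is Mrpl47.

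The narrow intervals went with low spread between arrays and with bright probes. The median pooled SD of members was 0.072, beside 0.15 for all genes tested. When genes were split into 4 equal bins by mean signal, 116 of the 157 members fell in the brightest bin. In that bin the median pooled SD was 0.068 for members and 0.096 for all genes, and an unadjusted p under 0.05 was found for 1.72% of members and 8.27% of all genes. The 22 member probes printed on 10 spots gave a measure of error between spots of an array. This measure leaves out error between arrays, such as from labelling or scaling. The median SD between spots of these probes was 0.051, which leaves a standard error of 0.016 for the mean of the spots. The median SD between arrays of a group was 0.072.

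**Figure D2:**
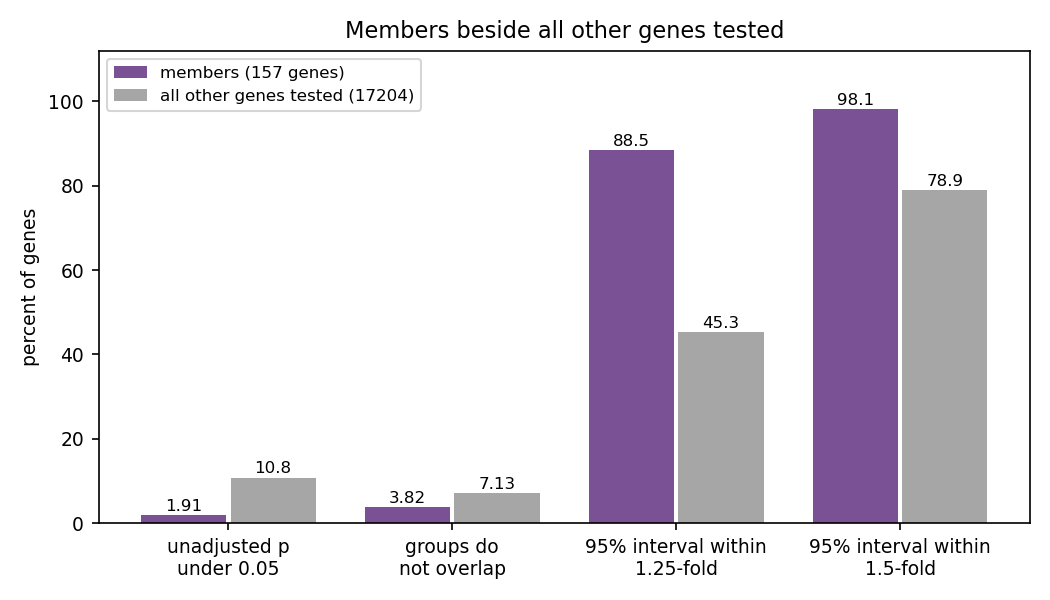
Percent of genes (vertical axis, from 0) in the 157 tested members and in the 17204 other genes tested, for 4 properties of the TCDD against control comparison. The members have fewer small p-values and fewer groups that do not overlap, and their 95% intervals lie within 1.25-fold in 88.5% against 45.3%.

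Complex I, the NADH dehydrogenase, had 36 of 36 members tested, 28 of them higher, with a median log2 difference of 0.023. With median centring its median was -0.015. Its members lay between -0.16 and 0.22, and 35 of the 36 had intervals within 1.25-fold.

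Ndufs4, an accessory subunit whose loss in humans causes Leigh syndrome, was the complex I member with the smallest p. Its log2 signal was 2.37, 2.28, 2.31 and 2.32 in TCDD dams and 2.18, 2.24, 2.21 and 2.13 in control dams. The 4 TCDD arrays stood above the 4 control arrays. The log2 difference was 0.13 (SE 0.05), a fold change of 1.096, with an unadjusted limma p of 0.037, an adjusted p of 0.44 and an exact permutation p of 0.029, the smallest that 4 arrays against 4 allow. Its other kept probe, which was dimmer, gave 0.21 (SE 0.13). The difference therefore did not pass over all genes. Its probe is shown because 1 probe carries this value, with the rn4 position the scanner files give. It is printed as the scanner files give it, with no part marked.
Ndufs4 probe, chr2:45840188-45840247, minus strand: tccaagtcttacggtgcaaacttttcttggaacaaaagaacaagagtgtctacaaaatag
Ndufb8, an accessory subunit of the membrane arm, was the member with the smallest p among those that were lower. It stood at 4.92, 4.92, 4.88 and 5.07 in TCDD dams and at 5.04, 5.17, 5.19 and 5.01 in control dams, so TCDD replicate 4 overlapped the control range. The difference was -0.16 (SE 0.07), with an adjusted limma p of 0.48. Ndufa3, also an accessory subunit, had groups that did not overlap, with a difference of only 0.06 (SE 0.05). It lies outside the rule for named genes and was named because it completes the count of 6. Of the Ndufaf assembly factors, which help to build complex I and are not part of it, 3 of 4 were tested and lay between -0.04 and 0.10. The kept probes of Ndufaf4 ranged from 0.0079 to 0.47 (SE 0.18), the last from a probe dimmer than the one used.

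Complex II is the succinate dehydrogenase that also works in the citric acid cycle. In the fit reported it had the smallest differences of any complex, with a median size of 0.0074. That rank depends on the scaling. With median centring the median log2 difference was -0.015 for complex I and -0.018 for ATP synthase, beside -0.031 for complex II. Sdha, its flavoprotein, stood at 1.85, 1.91, 2.01 and 2.04 in TCDD dams and at 1.99, 1.96, 1.92 and 1.95 in control dams, with a difference of -0.00090 (95% interval -0.14 to 0.14). Sdhb, the iron-sulphur subunit, stood at 2.09, 2.08, 2.07 and 2.15 in TCDD dams and at 2.13, 2.13, 2.09 and 2.04 in control dams, with a difference of 0.00046 (-0.12 to 0.12). The groups overlapped for both genes. The membrane anchors Sdhc and Sdhd differed by 0.014 (-0.12 to 0.15) and 0.05 (-0.10 to 0.19). All 4 intervals lay within 1.25-fold.

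Complex III, the cytochrome bc1 complex, had 7 members tested, 3 of them higher, with a median of -0.0034. Its core proteins Uqcrc1 and Uqcrc2 and the Rieske iron-sulphur protein Uqcrfs1 lay between -0.05 and 0.05. Uqcrq, a small subunit that binds quinone, varied widely among the controls (SD 0.37). Its log2 signal was -2.89, -2.88, -3.00 and -3.14 in TCDD dams and -3.41, -3.62, -3.54 and -2.80 in control dams. Control replicate 4 lay above all TCDD arrays. The difference was 0.36 (SE 0.17), and the adjusted limma p was 0.52. Cytochrome c, which carries electrons from complex III to complex IV, is encoded in somatic tissue by Cycs. It stood at 2.31, 2.41, 2.34 and 2.19 in TCDD dams and at 2.44, 2.46, 2.47 and 2.28 in control dams. Control replicate 4 lay below 3 TCDD arrays, while the other three control arrays lay above all TCDD arrays. The difference was -0.10 (SE 0.07, adjusted limma p of 0.70). A second kept probe of Cycs gave 0.04.

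Complex IV, cytochrome c oxidase, had 14 members tested, 7 of them higher, with a median of 0.0060. The 10 ubiquitous subunits lay between -0.13 and 0.16. Cox7c, one of them, stood at 0.73, 0.88, 0.68 and 0.63 in TCDD dams and at 0.58, 0.60, 0.60 and 0.49 in control dams. Each TCDD array was above each control array, with a difference of 0.16 (SE 0.07), an unadjusted limma p of 0.051 and an adjusted p of 0.47. Cox6c was the lowest of the complex. It stood at 5.28, 5.33, 5.32 and 5.21 in TCDD dams and at 5.32, 5.48, 5.49 and 5.36 in control dams, with overlapping groups and a difference of -0.13 (SE 0.06, adjusted limma p of 0.55).

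Several subunits of complex IV come in tissue isoforms. Cox4i1, the ubiquitous form of subunit 4, stood at 5.45, 5.48, 5.43 and 5.45 in TCDD dams and at 5.45, 5.53, 5.48 and 5.43 in control dams, with a difference of -0.02. Cox4i2, the form known from lung and from low oxygen, stood at 0.40, 0.29, 0.24 and 0.25 in TCDD dams and at 0.22, 0.19, 0.20 and 0.15 in control dams. The ubiquitous form overlapped between the groups and the other did not, but the difference of 0.11 (SE 0.06) for Cox4i2 had an adjusted limma p of 0.57. Cox6b2, known from testis, likewise had groups that did not overlap: 2.76, 2.79, 2.68 and 2.70 in TCDD dams and 2.67, 2.61, 2.65 and 2.51 in control dams, with a difference of 0.12 (SE 0.06, adjusted limma p of 0.54). Cox6a2 and Cox8b, the forms of heart and skeletal muscle, were dim, and differed by -0.07 (-0.42 to 0.28) and -0.06 (-0.55 to 0.42). Of the 5 striated muscle markers looked for, 0 passed the filter. Cox6a1, Cox7a2, Cox8a and Ndufa4, a complex IV subunit in spite of its name, lay between -0.02 and 0.03. A test of whether paired isoforms responded differently was not run.

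ATP synthase had 15 of 15 members tested, 11 of them higher, with a median of 0.020. With median centring its median was -0.018. By the probes used, intervals lay within 1.25-fold for all 15. The 5 subunits of the catalytic F1 head lay between -0.08 and 0.09, the 7 stalk and membrane subunits between -0.05 and 0.04. For Atp5d, in the head, the probe used gave 0.04 (SE 0.06) and another kept probe, much dimmer, gave 0.94 (SE 0.34). Atp5a1, the alpha subunit of the head, stood at 5.88, 5.96, 5.87 and 5.84 in TCDD dams and at 5.90, 5.999, 5.95 and 6.02 in control dams. The groups overlapped, and the difference was -0.08 (SE 0.06, adjusted limma p of 0.69). Atp5g1, Atp5g2 and Atp5g3 encode the same mature c subunit of the rotor ring. They differed by 0.02, -0.03 and 0.08, with SEs of 0.07 each.

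**Figure D3:**
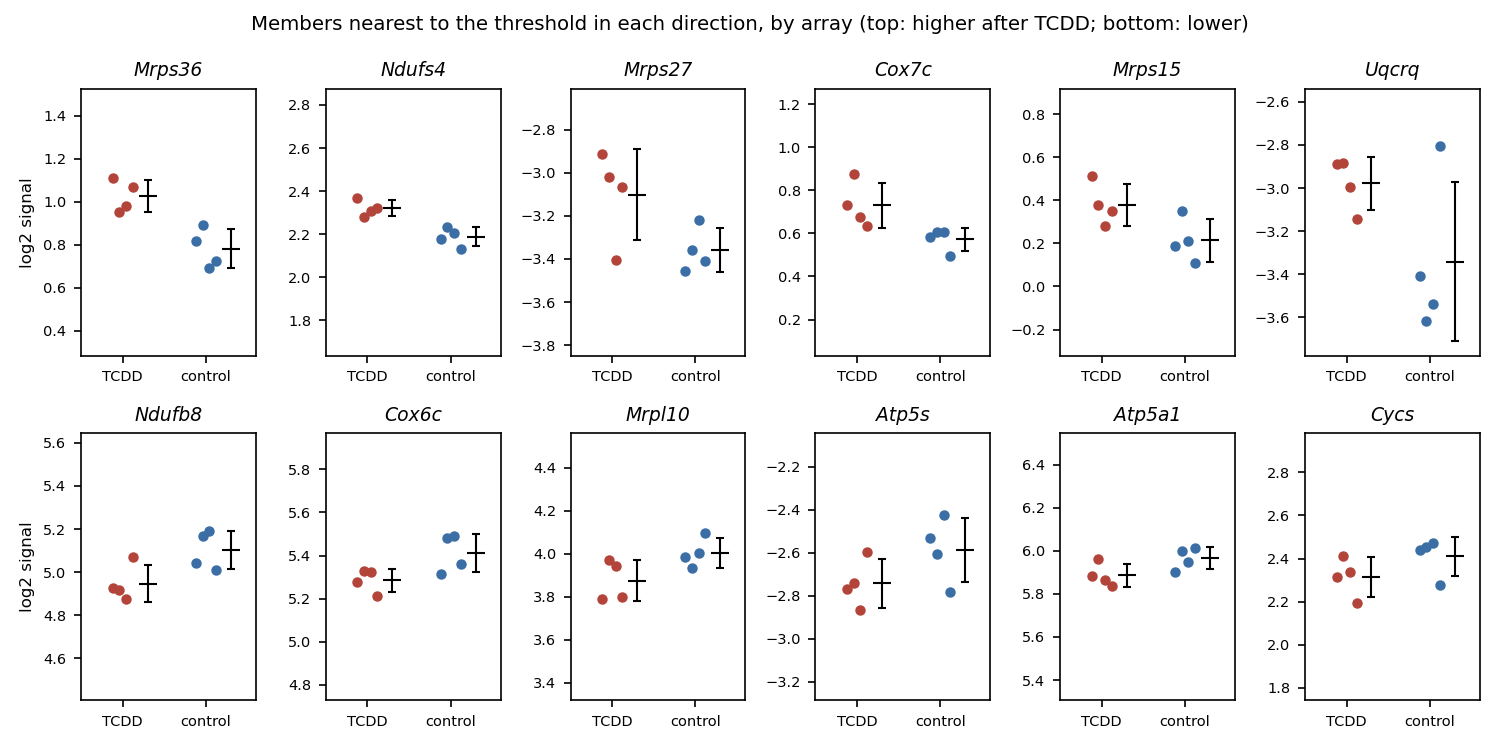
Log2 signal (vertical axis, relative to each array's 75th percentile, same span in every panel) of the 6 higher and 6 lower members nearest to the threshold. Points are single arrays, TCDD left and control right, and bars are mean and SD of 4 arrays. Mrps36, Ndufs4 and Cox7c have groups that do not overlap, and control replicate 4 stands high in the panel of Uqcrq.

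The genes of the mitochondrial ribosome had median differences near 0 in both subunits. The large subunit had 42 members tested, 22 of them higher, with a median of 0.0017, and the small subunit had 25 of 26 tested, 13 of them higher, with a median of 0.0039. Intervals lay within 1.25-fold for 37 large-subunit and 19 small-subunit members. Subunits were assigned by gene name, although Mrps30 and Mrps18a are known to sit in the large subunit.

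In the small subunit, Mrps27 stood at -2.91, -3.02, -3.40 and -3.07 in TCDD dams and at -3.46, -3.36, -3.22 and -3.41 in control dams. TCDD replicate 3 lay within the control range. The difference was 0.26 (SE 0.11), with an unadjusted limma p of 0.049 and an adjusted p of 0.46. Mrps15 differed by 0.17 (SE 0.08, adjusted limma p of 0.50), with 0.51, 0.38, 0.28 and 0.35 in TCDD dams and 0.19, 0.35, 0.21 and 0.11 in control dams. In the large subunit, Mrpl10, part of the stalk that binds translation factors, stood at 3.79, 3.97, 3.94 and 3.80 in TCDD dams and at 3.99, 3.93, 4.00 and 4.10 in control dams. Its groups overlapped, and the difference was -0.13 (SE 0.07, adjusted limma p of 0.56). Mrpl47 had the largest difference of any member in size, 0.51, with an SE of 0.55. Its TCDD replicate 1 stood at -3.38 and the other three TCDD arrays between -5.91 and -5.41, beside -6.23 to -4.74 in control dams.

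The name rule also took in 5 proteins that belong to neither machine. Mrps36, named for the ribosome and now called Kgd4, is a subunit of the 2-oxoglutarate dehydrogenase complex of the citric acid cycle. It had the smallest p of all members. It stood at 1.11, 0.95, 0.98 and 1.07 in TCDD dams and at 0.82, 0.89, 0.69 and 0.73 in control dams. The 4 TCDD arrays stood above the 4 control arrays. The log2 difference was 0.25 (SE 0.07), a fold change of 1.19 with a 95% interval of 0.09 to 0.40 on the log2 scale. The unadjusted limma p was 0.0071, the adjusted p 0.31 and the exact permutation p 0.029. Its probe is shown for the same reason, in rn4 coordinates, where its 60 bases are spread over 1039 genomic bases.
Mrps36 probe, chr2:31531272-31532310, minus strand: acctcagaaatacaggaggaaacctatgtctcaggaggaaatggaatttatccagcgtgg
The other 4 were Atp5s (now Dmac2l), Atp5sl (now Dmac2), Cox7a2l, a factor that binds respiratory supercomplexes, and Cox4nb (now Emc8), a subunit of a membrane protein insertase of the endoplasmic reticulum. They lay between -0.16 and 0.11. Atp5s stood at -2.77, -2.74, -2.87 and -2.60 in TCDD dams and at -2.53, -2.61, -2.43 and -2.78 in control dams, with a difference of -0.16 (SE 0.09, adjusted limma p of 0.62). A further 5 members carry names of near-copies of a subunit gene, such as Cox6c-ps1. Probes of a gene and a near-copy can share transcripts, so those 5 values, between -0.03 and 0.14, are uncertain. The Ndufa10l1 probe used (chr9:91655487-91655546) lies near that of Ndufa10 (chr9:91654891-91654950), on the same strand. That name may thus not mark a separate copy. Between the probes used, the longest shared run was 9 bases, for Cox6c and Cox6c-ps1. This run does not show what each probe binds.

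The median member level of an array varied more among control arrays than between the groups. Each gene was set against its own mean over the 8 arrays. The median member then stood at 0.0079, 0.024, 0.00045 and -0.0041 on the TCDD arrays and at -0.04, 0.05, -0.010 and -0.02 on the control arrays. Control replicate 2 was the highest and control replicate 1 the lowest of all 8, and the TCDD arrays lay between them. The group means of these medians differed by 0.012, beside SDs of 0.012 among TCDD and 0.039 among control arrays (n = 4 each). Of 157 members, 85, 100, 79 and 75 stood above their own mean on the TCDD arrays, and 45, 121, 66 and 65 on the control arrays. Over all genes tested this share was 50.6% to 58.1% on the TCDD arrays and 43.7% to 49.7% on the control arrays. Their median stood at 0.0018 to 0.028 on the TCDD arrays and at -0.021 to -0.00084 on the control arrays. The group means of the all-gene medians differed by 0.023, and those of the brightest bin by 0.0013. Within complex I TCDD replicate 2 was highest, at 0.044, and the control arrays ran from -0.041 to 0.038. For a description over 8 arrays, the TCDD mean and the control mean of each gene were removed instead. The mean correlation between pairs of genes was then 0.13 among members, 0.18 within complex I and 0.32 within the 4 genes of complex II. It was 0.04 within complex III, 0.27 within complex IV and 0.27 within ATP synthase. It was 0.09 within the large and 0.11 within the small ribosomal subunit, beside 0.0051 over all genes and 0.08 in the brightest bin. The genes of 1 array share its RNA, labelling and scaling.

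**Figure D4:**
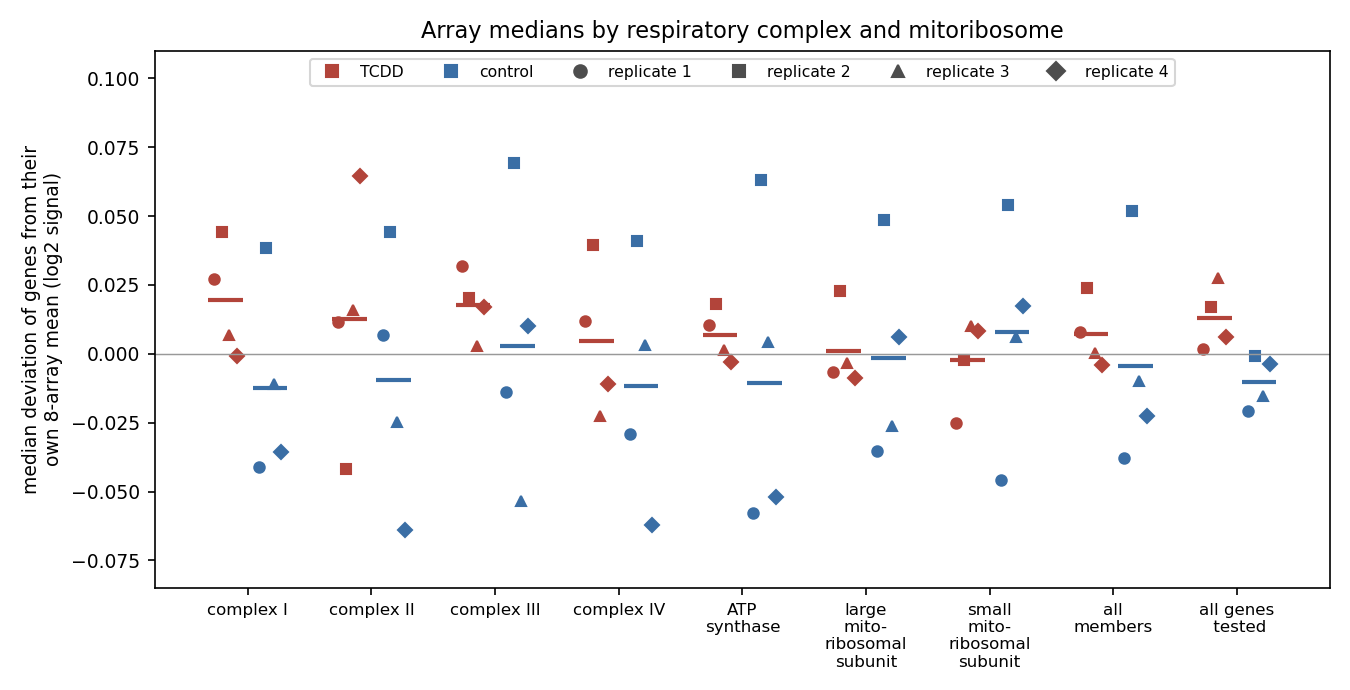
Median deviation of a complex's genes from their own 8-array means (vertical axis, log2 signal), for each array. Red is TCDD, blue control, symbols are replicates, horizontal bars are the mean of 4 arrays, and replicate numbers do not pair arrays. Control replicate 2 is high and control replicate 1 low in most columns, and the TCDD arrays lie mostly between them. In the column of all genes tested each TCDD array lies above each control array.

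Several probes per gene gave a second view. Of the tested members, 29 had more than 1 kept probe, and in 20 of them all probes had the same sign. The median range between a gene's probes was 0.07. The widest was 1.11, in Mrpl50, where the probe used gave 0.013 and a dim probe 1.12. In Atp5d the range was 0.90 and in Ndufaf4 0.46.

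The nuclear genes of the respiratory chain are known to share promoter motifs, among them those of NRF1, of the ETS factor GABP (NRF-2) and of YY1. RefSeq promoters (GRCr8, from 250 bases before to 50 after the start, 1 start per gene) matched 133 of 160 members. The motifs were searched on both strands as exact letters. GCATGCGC, for NRF1, was found in 16 of 133 member promoters, 2.66% of the 27457 promoters in the table and 4.81% of those of tested genes. The NRF1 palindrome, GCGCA and GCGC joined by any 1 base, was in 17.3% of member promoters, 4.71% of the table and 9.33% of tested genes. In the same order, the ETS motif CCGGAAG was in 30.1%, 9.22% and 16.7%, and the YY1 motif AAGATGGCG in 14.3%, 1.93% and 3.36%. The AhR motif TNGCGTG, the xenobiotic response element, was in 8.27%, 5.12% and 7.56%. Among tested genes in the brightest bin, which holds most members, the shares were 5.83% for GCATGCGC, 13.3% for the palindrome, 22.4% for ETS, 4.62% for YY1 and 8.83% for the AhR motif, the last above the share of members. Its 11 member genes that were tested had a median log2 difference of 0.015, and the 120 without it 0.014. Overlapping motifs were each counted. GCATGCGC was added after the Cycs promoter had been seen to lack the palindrome.

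Promoters of 4 members are shown, picked after the matches were known so that each motif appears at least once. Capitals mark the matches: GCATGCGC in Cycs, the palindrome 3 times in Sdha, the YY1 motif in Ndufs4, and in Cox4i1 the ETS motif on the minus strand of the print and 1 AhR motif, also on that strand.
Cycs, chr4:80984718-80985017, minus strand: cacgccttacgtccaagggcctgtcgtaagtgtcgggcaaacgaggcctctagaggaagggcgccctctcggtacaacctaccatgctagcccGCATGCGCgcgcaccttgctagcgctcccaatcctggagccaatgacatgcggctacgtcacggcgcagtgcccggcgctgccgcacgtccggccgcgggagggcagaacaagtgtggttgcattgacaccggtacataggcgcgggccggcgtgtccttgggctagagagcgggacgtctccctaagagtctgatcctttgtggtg
Sdha, chr1:30764303-30764602, plus strand: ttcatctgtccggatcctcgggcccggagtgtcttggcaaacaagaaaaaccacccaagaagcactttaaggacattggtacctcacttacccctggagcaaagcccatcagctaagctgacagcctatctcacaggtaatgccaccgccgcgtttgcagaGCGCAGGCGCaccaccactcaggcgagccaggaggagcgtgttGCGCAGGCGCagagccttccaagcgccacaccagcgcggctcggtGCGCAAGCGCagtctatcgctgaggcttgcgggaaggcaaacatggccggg
Ndufs4, chr2:47794865-47795164, minus strand: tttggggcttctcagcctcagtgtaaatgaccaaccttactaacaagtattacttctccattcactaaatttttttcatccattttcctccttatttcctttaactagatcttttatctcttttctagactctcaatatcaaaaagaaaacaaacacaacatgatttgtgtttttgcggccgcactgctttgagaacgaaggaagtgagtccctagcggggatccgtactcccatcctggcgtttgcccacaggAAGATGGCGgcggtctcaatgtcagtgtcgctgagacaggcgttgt
Cox4i1, chr19:65630133-65630432, plus strand: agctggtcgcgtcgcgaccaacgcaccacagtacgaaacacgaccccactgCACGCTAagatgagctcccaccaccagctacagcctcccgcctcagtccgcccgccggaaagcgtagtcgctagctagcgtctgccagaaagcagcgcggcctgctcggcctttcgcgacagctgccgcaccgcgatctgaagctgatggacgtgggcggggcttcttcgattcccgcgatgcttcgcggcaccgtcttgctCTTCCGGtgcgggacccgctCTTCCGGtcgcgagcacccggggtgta
The genes shown differed by -0.10, -0.00090, 0.13 and -0.02 on the log2 scale. The AhR motif in Cox4i1 stood beside a difference whose 95% interval was -0.14 to 0.10.

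The pathways around the members were read from fixed lists, with 0 genes called in any list. Regulators of mitochondrial biogenesis had 8 of 15 tested genes higher, and 4 with median centring. Among them, the transcription factor Nrf1 differed by -0.03 and Tfam, which packages and transcribes mitochondrial DNA, by 0.0055. Of assembly factors outside the rule, 13 of 24 were higher, and 10 with median centring. Surf1, an assembly factor of complex IV, stood at 1.49, 1.48, 1.48 and 1.48 in TCDD dams and at 1.63, 1.67, 1.64 and 1.66 in control dams. Its groups lay apart, with a difference of -0.17 (SE 0.05, adjusted limma p of 0.31). Cox20 and Sco1, also complex IV assembly factors, differed by 0.35 (SE 0.11, adjusted limma p of 0.33) and 0.17 (SE 0.06, adjusted limma p of 0.41). Their groups did not overlap either. Of these 24 assembly factors, all TCDD arrays stood above all control arrays in 2 (5.19% of all genes) and below them in 1 (1.91%). Mitochondrial translation factors were higher in 3 of 10, and in 5 of 10 without TCDD replicate 1 or without control replicate 4. Mtif3, an initiation factor, differed by -0.18 (SE 0.05, adjusted limma p of 0.32), and Tars2, the threonyl-tRNA synthetase, by -0.16 (SE 0.07, adjusted limma p of 0.45). In these 2 of the 10 genes all TCDD arrays stood below all control arrays, beside 1.91% of all genes. Import genes were higher in 7 of 15 (4 without control replicate 1 and 3 with median centring), and carriers and pores in 7 of 10. Chaperones and proteases were higher in 5 of 9, and in 3 without TCDD replicate 3 or without control replicate 1. They were also higher in 3 with quantile normalization, median centring, normexp or the deposited table. Antioxidant genes were higher in 3 of 7, and in 2 with median centring.

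Glycolysis and the citric acid cycle lay on the higher side. All 16 tested glycolysis genes were higher after TCDD, with a median of 0.11, beside 0.020 and 56.4% higher over all genes tested, though 1 of the 16 had an unadjusted limma p under 0.05 and 0 passed. Gapdh, a glycolytic dehydrogenase, was at 4.31, 4.23, 4.25 and 4.37 in TCDD dams and at 4.10, 4.18, 3.93 and 4.14 in control dams. The groups did not overlap, and the difference was 0.21 (SE 0.07, adjusted limma p of 0.39). Aldoa and Tpi1, the neighbouring steps, differed by 0.16 (SE 0.07) and 0.21 (SE 0.11). Across the 19 alternatives 14 to 17 glycolysis genes were higher, 17 where an extra gene was tested without the filter, 14 with median centring (median 0.07), 14 without TCDD replicate 3 and 14 without control replicate 4. Pyruvate dehydrogenase and citric acid cycle genes were higher in 14 of 17, with a median of 0.056. At an unadjusted limma p under 0.05 stood 0 of them. Over the alternatives 11 to 16 were higher, with 11 and a median of 0.017 under median centring. Dlat, Pdhx and Pdhb, subunits of pyruvate dehydrogenase, differed by 0.19 (SE 0.09), 0.15 (SE 0.08) and 0.14 (SE 0.08). Erythrocyte markers were also higher on the TCDD arrays, in 5 of 5 tested. Averaged over these markers, the deviation from the 8-array mean was -0.0011, 0.72, 0.53 and 0.55 in TCDD dams. In control dams it was -0.63, -0.73, -0.67 and 0.22. The part of these markers in the glycolysis values was not tested.

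**Figure D5:**
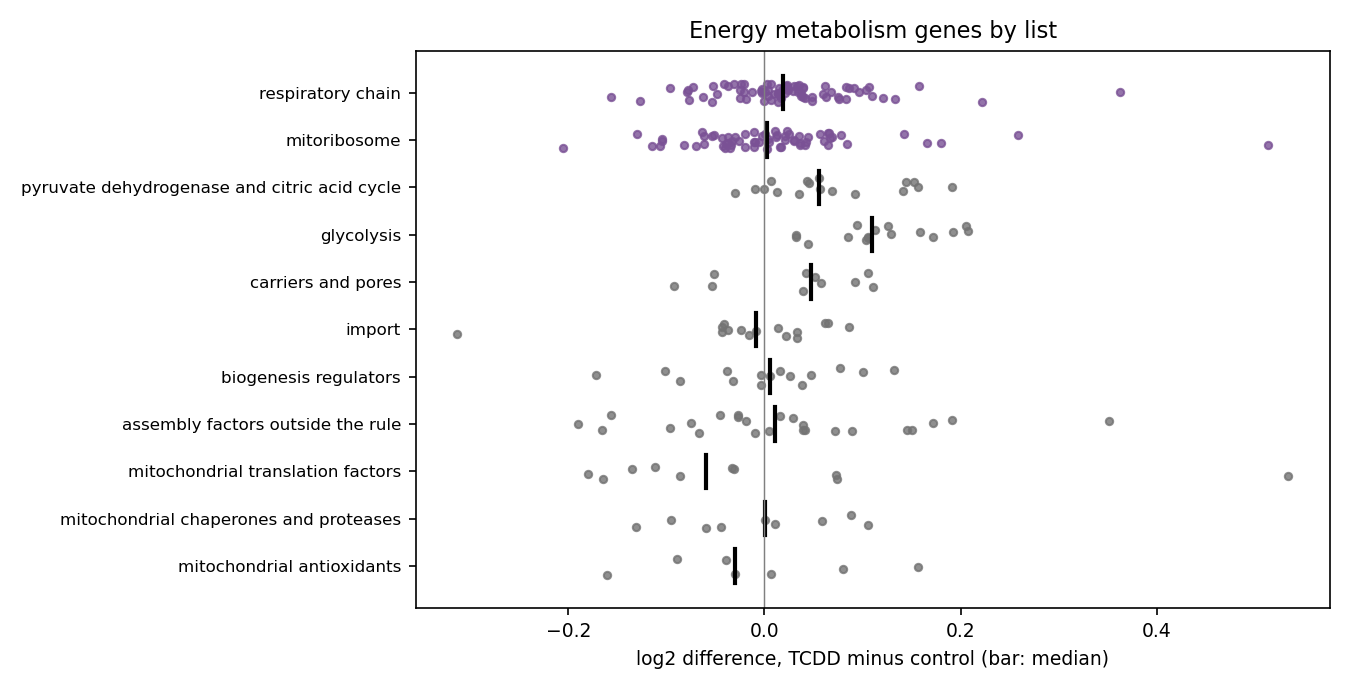
Log2 difference (TCDD minus control, horizontal axis) of single genes in the respiratory chain, the mitoribosome and 9 neighbouring lists. Each point is a gene and each bar a list's median. Glycolysis genes all lie above 0, with a median of 0.11, while respiratory chain and mitoribosome genes centre near 0.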

How the data were processed

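The deposited scanner files hold spot intensities. Images were quantified with version 10.7.1.1 of Agilent Feature Extraction, as the headers state. Per the file headers the intensities are linear, background-subtracted, processed per array. Probe coordinates are rn4, per the file headers. A deposited intensity table of the same arrays served as an alternative; its processing is not given in the sources used here. Processed signals were divided by the array's own 75th percentile over non-control spots and put on a log2 scale. Outlier spots were set to missing and spots of a probe averaged. Probes well above background on 4 or more arrays were kept, and each gene was represented by its kept probe with the highest mean. Probes were grouped by current RefSeq symbols (GRCr8) where a match was found. The other 9148 of 30367 probes were grouped by the files' own names. Members are printed under the files' own names.

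TCDD and control arrays were compared in limma 3.58.1 (R 4.3.3; lmFit, eBayes), with no covariate. Tests were two-sided and adjusted by Benjamini-Hochberg over 17361 genes, with a threshold of 0.05. Exact permutation tests used 70 assignments. The fit was tested on simulated data. Named genes were up to 10 per direction with unadjusted p under 0.05 and no overlap, filled to 6 per direction by p, plus complex II, Cycs and listed isoforms, and up to 3 genes per outside list by p. Nrf1 and Tfam were named beyond this rule, after their values were seen. The members, lists and tests were chosen with earlier results of these data known. The functional subgroups of complexes, the printed sequences and the checks of outside-list counts under alternatives were chosen after values were seen. Alternatives covered normalization, background, filter, probe summary, outlier spots, variance model, array weights, deposited table, replicate block and leaving out each array. Replicate numbers did not pair the arrays. With each group's mean removed from each gene, the deviations of same-numbered TCDD and control arrays correlated at -0.02, -0.07, -0.03 and -0.10 over genes.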

Additional observations from a re-analysis of the deposited data

Results flagged for a closer look

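Dixon's ratio of gap to range was checked in 78 groups of 4 arrays, the named genes and the complex medians, and 2 stood out, where chance gives about 5%. The first was Cycs in control replicate 4, with a ratio of 0.8447: it stood at 2.28, beside 2.44 to 2.47 in the other three control arrays. The second was the median of the 3 Ndufaf assembly factors in TCDD replicate 2, with a ratio of 0.8652: it stood at 0.21 relative to the 8-array mean, beside -0.04 to -0.0066 in the other three TCDD arrays.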

How the results depend on the processing

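Under all 19 alternatives 0 members were called. Genes called over the whole array numbered 14, and 1 with quantile normalization, 9 with median centring, 0 with normexp, 4 with a trended robust variance, 30 with array weights, 1 in the deposited table, 0 with the replicate block and 0 to 11 with an array left out. The replicate block left 1 member higher at an unadjusted p under 0.05. That count, 3 in the fit reported, was 1 with median centring, 8 with normexp, 1 with no filter, 5 with a trended variance, 6 with array weights and 1 to 4 with an array left out. The lower count, 0 there, was 2 with median centring, 2 with a trended variance, 2 with array weights, 1 in the deposited table and 0 to 2 with an array left out.

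Median centring gave 48 members higher and 109 lower. The median was then -0.025 over all members, -0.015 for complex I, -0.031 for complex II and -0.042 for complex III. It was -0.032 for complex IV, -0.018 for ATP synthase, -0.037 for the large and -0.035 for the small ribosomal subunit. For near-copies it was -0.012 (0.078 with normexp). The small subunit ranged from -0.031 to 0.012 with an array left out.

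Of 532 values of named genes under alternatives, 490 kept their sign and side of the threshold, 42 turned sign and 0 passed (lowest adjusted limma p 0.13). The differences that turned were at most 0.073 in size in the fit reported, and those of the dim probes of Cox6a2 and Cox8b had wide intervals. With quantile normalization Sdhb was -0.013, Cox6a1 0.020 and Cox8a 0.018. With median centring Sdhb was -0.038, Sdhc -0.025, Cox7a2 -0.0085, Atp5g1 -0.016 and Ndufa4 -0.024. With normexp Sdha was 0.019, Sdhc -0.026, Cox4i1 0.013, Cox8a 0.014 and Atp5g2 0.021. With all kept probes averaged Atp5g2 was 0.0034. With array weights Sdhb was -0.020 and Sdhc -0.0067. In the deposited table Sdhb was -0.023, Cox6a1 0.020 and Cox8a 0.0099. With an array left out, Sdha ranged from -0.031 to 0.035, Sdhb from -0.019 to 0.011, Sdhc from -0.0067 to 0.049, Cox4i1 from -0.034 to 0.0013, Cox8a from -0.029 to 0.011, Cox8b from -0.16 to 0.14, Cox6a2 from -0.20 to 0.032, Ndufa4 from -0.037 to 0.057, Atp5g1 from -0.020 to 0.065 and Atp5g2 from -0.059 to 0.0083. The cause was not tested. The number of arrays limits the precision, and among members the intervals of Mrpl47 and Mrps10 are the widest. Slide, scan time and exposure cannot be told apart under any alternative.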
